A study of Mus musculus with 10 samples.

Results

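The genes described here belong to the signalling systems through which blood vessels sprout and settle: the angiopoietin ligands Angpt1 and Angpt2 with their receptors Tek (also called Tie2) and Tie1, the angiopoietin-like protein Angptl4, the peptide apelin (Apln) and its receptor (Aplnr), the Notch ligand Dll4 with the receptor Notch1, and the tip cell proteoglycan Esm1. The 10 members were chosen by gene symbol, and all 10 were among the 18603 genes of the deposited count table. They were followed in tumours that the mouse renal carcinoma line RENCA formed under the skin of female Balb/c mice, whose age the labels do not give. Control tumours were injected with PBS, and treated tumours with SLR14, a stem-loop RNA carrying a 5′ triphosphate that activates the cytosolic RNA sensor RIG-I, packed in lipid nanoparticles in 50 µL of PBS. Both groups carried the same cancer line, and injections began when tumours measured 100 to 150 mm3, were given 3 times at intervals of 48 h, and ended with harvest 24 h later. There were 5 mice, each with 1 tumour analysed, on either arm. The contrast therefore joins the RNA and its lipid carrier, since empty particles are not among the groups analysed here. The title of the series names vascular remodelling, and the comparison below asks whether these vessel genes differed between the groups.

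Angpt1, made largely by perivascular and stromal cells, activates Tek on endothelium and favours quiet, covered vessels, while Angpt2 is released by activated endothelium and can antagonise it. Tie1 is an endothelial co-receptor of Tek without a well-defined ligand of its own. At the front of a growing sprout, tip cells express Dll4, Apln, Esm1 and Angpt2, and Dll4 acting on Notch1 in the neighbouring cells holds those cells back from becoming tips. Angptl4 inhibits lipoprotein lipase and is induced by hypoxia and by lipid-sensing nuclear receptors. In bulk tumours fewer cells of a type and less RNA per cell cannot be told apart, and Angptl4, Notch1 and Apln can also be made by cells other than endothelium.

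Total counts were between 17931895 and 39842608 per tumour, and within-group pairs of tumours differed by more than counting noise. Levels are given as TMM-scaled CPM (read counts brought to an equal library size), and differences as log2 fold changes of SLR14 minus PBS from edgeR's quasi-likelihood test, with Benjamini-Hochberg adjustment over the 15883 genes that passed the low-count filter. The renal epithelial marker Krt8 was at 1415 ± 190 CPM in PBS tumours (SD, n = 5) and the kidney transcription factor Pax8 at 92.2 ± 16.7 CPM. Endothelium was present in every tumour: the 23 endothelial identity genes, none of them a member, summed to 337 to 521 CPM in PBS against 402 to 496 CPM in SLR14 tumours. Eng (81.5 CPM in PBS tumours) and Tal1 (64.0 CPM) were the largest parts of that sum, and which cells made them was not tested. The mean log2(CPM + 1) of the 23 genes, called the endothelial score, was 3.44 ± 0.306 in PBS against 3.45 ± 0.113 in SLR14 tumours (SD, n = 5, two-sided exact permutation p = 0.968). PBS tumour 3 stood apart for several members, with the highest endothelial score (3.82) and the lowest summed level of 22 hypoxia response genes (6143 CPM against 10321 to 13976 CPM in the other PBS tumours). PBS tumour 5 had the highest summed red cell markers, 173 CPM against 54.3 to 63.9 CPM in the other PBS tumours, and the summed skeletal muscle markers were lowest in SLR14 tumour 2 at 3.51 CPM. The part of these differences in the members' values was not tested beyond the fits without those tumours.

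RefSeq promoter windows on build GRCm38.p6, from 250 bases before to 50 bases after the annotated start, were at hand for 6 of the 10 members. The first pair is shown because Tie1 and Dll4 had the highest Pearson r of any 2 tested members across the tumours. Capitals mark the letters GGAA, the core bound by ETS factors that endothelial genes share, or their reverse complement.
Tie1 (chr4:118489800-118490099, minus strand): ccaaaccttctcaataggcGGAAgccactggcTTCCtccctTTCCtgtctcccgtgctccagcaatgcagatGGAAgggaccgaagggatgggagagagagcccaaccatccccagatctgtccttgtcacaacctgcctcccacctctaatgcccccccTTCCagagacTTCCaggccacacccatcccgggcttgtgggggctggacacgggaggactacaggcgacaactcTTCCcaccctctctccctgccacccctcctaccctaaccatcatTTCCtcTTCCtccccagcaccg
Dll4 (chr2:119325534-119325833, plus strand): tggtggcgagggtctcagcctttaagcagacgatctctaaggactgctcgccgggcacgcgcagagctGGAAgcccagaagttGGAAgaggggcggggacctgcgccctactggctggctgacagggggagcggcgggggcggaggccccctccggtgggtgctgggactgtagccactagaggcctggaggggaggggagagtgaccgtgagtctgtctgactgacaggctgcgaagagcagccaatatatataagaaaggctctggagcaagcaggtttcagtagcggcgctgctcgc
The Tie1 window held 9 such matches and the Dll4 window 2, where the median of 32851 promoter windows was 3 and 96.0% held at least 1. The other pair is shown because Apln had the smallest p of the members and Esm1 went with the hypoxia genes. Capitals mark ACGTG or GCGTG on either strand, the core bound by hypoxia-inducible factors.
Apln (chrX:48034804-48035103, minus strand): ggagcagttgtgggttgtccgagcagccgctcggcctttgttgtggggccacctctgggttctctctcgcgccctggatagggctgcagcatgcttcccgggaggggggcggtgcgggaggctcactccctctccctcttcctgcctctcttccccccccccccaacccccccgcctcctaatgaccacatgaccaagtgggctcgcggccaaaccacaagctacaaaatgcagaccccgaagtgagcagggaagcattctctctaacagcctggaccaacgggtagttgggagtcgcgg
Esm1 (chr13:113209409-113209708, plus strand): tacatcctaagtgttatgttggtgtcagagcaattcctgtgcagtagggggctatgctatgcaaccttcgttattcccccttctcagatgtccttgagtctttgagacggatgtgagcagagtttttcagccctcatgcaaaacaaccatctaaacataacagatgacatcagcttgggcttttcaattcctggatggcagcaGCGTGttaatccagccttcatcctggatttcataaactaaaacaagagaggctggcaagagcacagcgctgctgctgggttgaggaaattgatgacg
Esm1 held 1 such match and Apln held 0, and 43.8% of all windows held at least 1. The core of the interferon-stimulated response element, searched on both strands, occurred in 0 of the 6 windows and in 3.44% of all windows. TGGGAA, the core bound by the Notch effector RBPJ, which itself contains GGAA, occurred in 1 of the 6, that of Tie1, and in 25.6% of all windows. A match describes letters only.

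Compared per kilobase of exon, so that long and short transcripts can be set side by side, Angptl4 was the most abundant member and Angpt1 the least. In PBS tumours Angptl4 was at 48.5 ± 9.05 CPM per kb and Apln at 11.8 ± 3.13 CPM per kb (SD, n = 5). Notch1 followed at 6.56 ± 2.25 CPM per kb, below Apln in 8 of the 10 tumours. Esm1 (4.81 ± 3.19), Dll4 (4.51 ± 0.906) and Tie1 (4.43 ± 1.70 CPM per kb) did not separate: Esm1 was above Dll4 in 3 tumours and Dll4 above Tie1 in 3. Aplnr (2.57 ± 2.63) and Angpt2 (2.14 ± 1.12 CPM per kb) overlapped too, with Aplnr above Angpt2 in 3 of the 10. Tek was lower at 0.895 ± 0.504 CPM per kb, below Angpt2 in 9 tumours, and Angpt1, at 0.104 ± 0.0685 CPM per kb, was below Tek in all 10.

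**Figure D1:**
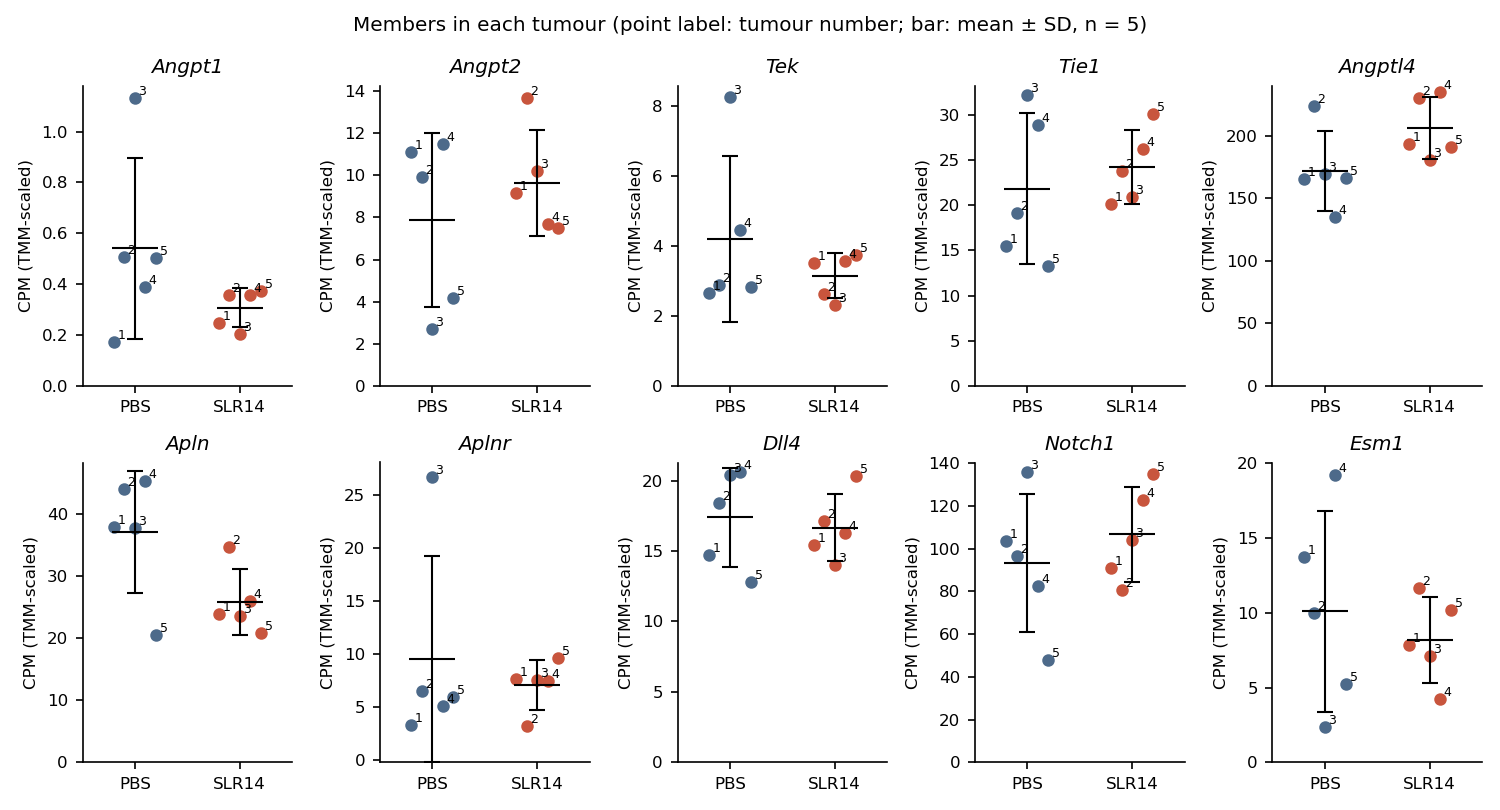
CPM of each member in each tumour, with tumour numbers beside the points and bars for mean ± SD (n = 5 per group). The groups overlap for all 10 genes; PBS tumour 3 is highest for Angpt1, Tek, Tie1, Aplnr and Notch1 and lowest for Angpt2 and Esm1 among the PBS tumours, and 4 of 5 PBS tumours lie above all SLR14 tumours for Apln.

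None of the vessel genes passed the test between SLR14 and PBS tumours. Apln, the apelin ligand, came closest with a mean of 37.1 ± 9.87 CPM in PBS against 25.8 ± 5.34 CPM in SLR14 tumours (SD, n = 5), and Angptl4 was at 172 ± 32.0 and 206 ± 24.8 CPM. Of the 10 members, 9 passed the low-count filter and 0 were called in edgeR at an adjusted p of 0.05, where 0.963% of all tested genes were called, 0.674% as higher and 0.29% as lower. DESeq2 and limma voom also called 0 of them, and 1 of the 9 had an unadjusted p under 0.05, against 10.8% of all genes tested. Of the 9, 5 had negative and 4 positive log2 fold changes (52% of all tested genes were negative), with a median of -0.06 where the median of all tested genes was -0.01. The CPM ranges of the groups overlapped for each of the 9, while they did not overlap for 3.24% of tested genes.

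**Figure D2:**
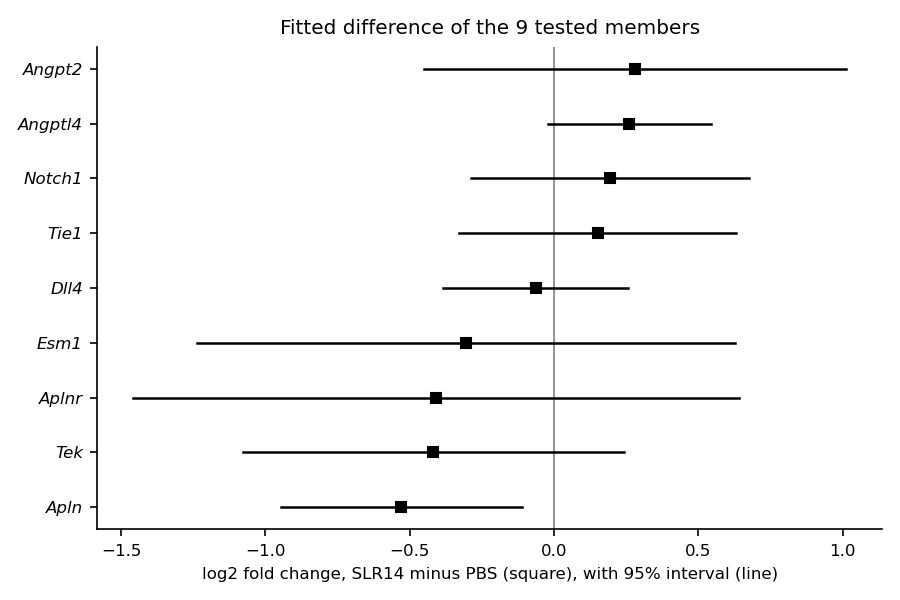
Fitted log2 fold change of SLR14 minus PBS for the 9 tested members (squares) with 95% intervals (lines). The interval of Apln, from -0.95 to -0.11, leaves out 0 before adjustment; those of Aplnr and Esm1 are the widest.

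The apelin pair was the part of the set with the smallest p. Apln (ENSMUSG00000037010), the secreted peptide that tip cells express, was at 37.9, 44.1, 37.7, 45.3 and 20.6 CPM in PBS tumours 1 to 5 and at 24.0, 34.8, 23.6, 26.0 and 20.8 CPM in SLR14 tumours 1 to 5. PBS tumours 1 to 4 were above every SLR14 tumour, and PBS tumour 5 was below all of them. That tumour had the high red cell markers, the lowest summed level of the 23 other tip cell genes (1473 CPM against 2402 to 3184 CPM elsewhere) and a place apart on the first principal component of all tested genes (54.5 against -17.0 to 10.8, 36.4% of the variance). Col4a1, Nrp2 and Col4a2 were the largest parts of that sum (648, 559 and 335 CPM in PBS tumours), and which cells made them was not tested. Kcne3 of the same list was highest in PBS tumour 5, at 12.4 CPM. The part of these features in the Apln level of that tumour was not tested. The log2 fold change was -0.53 (SE 0.19, 95% interval -0.95 to -0.11, edgeR adjusted p = 0.326). Without PBS tumour 5 it was -0.69 and passed (edgeR adjusted p = 0.0202), and without both PBS tumour 5 and SLR14 tumour 2 it was -0.82 (edgeR adjusted p = 0.00101). PBS tumour 5 held the lowest PBS value of Apln and SLR14 tumour 2 the highest SLR14 value. Leaving them out widens the difference by construction, so these fits are no support for it. Apln did not pass without any other single tumour (edgeR adjusted p 0.221 to 0.550).

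Aplnr (ENSMUSG00000044338), the G protein-coupled apelin receptor found on venous and sprouting endothelium, was at 3.28, 6.54, 26.8, 5.03 and 5.89 CPM in PBS against 7.67, 3.15, 7.51, 7.44 and 9.59 CPM in SLR14 tumours. PBS tumour 3 was 5.17 times the mean of the other 4 PBS tumours, and 4 of 5 SLR14 tumours lay above the PBS median. The log2 fold change was -0.41 (SE 0.49, edgeR adjusted p = 0.761) and had the opposite sign without PBS tumour 3 (0.46, edgeR adjusted p = 0.566). No direction can therefore be given for Aplnr.

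The angiopoietin ligands differed in level. Angpt1 (ENSMUSG00000022309), the Tek agonist, had 5, 16, 30, 13 and 13 reads in PBS tumours 1 to 5 and 6, 6, 8, 7 and 14 in SLR14 tumours 1 to 5. With 77 reads in all PBS and 41 in all SLR14 tumours it stayed below the filter, since only 4 tumours, 1 fewer than needed, reached the 0.373 CPM that it asks for before TMM scaling. All 5 SLR14 tumours were below the PBS median of 0.503 CPM, though PBS tumour 1 was the lowest of the 10. Fitted without a filter, its log2 fold change was -0.81 (SE 0.46, edgeR adjusted p = 0.571).

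Angpt2 (ENSMUSG00000031465), the ligand that activated endothelium stores and releases, was at 11.1, 9.90, 2.71, 11.5 and 4.18 CPM in PBS against 9.15, 13.7, 10.2, 7.69 and 7.49 CPM in SLR14 tumours. PBS tumours 3 and 5 were below every SLR14 tumour, and the other 3 PBS tumours lay within the SLR14 range. As a log2 fold change, the difference was 0.28 (SE 0.34, 95% interval -0.45 to 1.01, edgeR adjusted p = 0.762). Its sign turned, to -0.04, without both PBS tumour 5 and SLR14 tumour 2, and to -0.18 without both PBS tumours 3 and 5.

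Tek (ENSMUSG00000006386), the angiopoietin receptor kinase, was at 2.65, 2.89, 8.26, 4.46 and 2.83 CPM in PBS against 3.53, 2.62, 2.31, 3.57 and 3.73 CPM in SLR14 tumours. PBS tumour 3 was 2.58 times the mean of the other PBS tumours, and the remaining 9 tumours lay within 2.31 to 4.46 CPM. The log2 fold change of -0.42 (SE 0.31, edgeR adjusted p = 0.631) shrank to -0.03 without PBS tumour 3 (edgeR adjusted p = 0.973).

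Tie1 (ENSMUSG00000033191), the co-receptor, was at 15.5, 19.1, 32.2, 28.9 and 13.2 CPM in PBS against 20.1, 23.8, 20.9, 26.2 and 30.1 CPM in SLR14 tumours. All 5 SLR14 tumours were above the PBS median and all lay between the extremes of the PBS tumours. Its fitted difference was 0.15 in log2 (SE 0.22, 95% interval -0.33 to 0.63, edgeR adjusted p = 0.802).

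Angptl4 (ENSMUSG00000002289), a secreted inhibitor of lipoprotein lipase, was at 165, 224, 169, 135 and 166 CPM in PBS against 193, 230.4, 181, 235 and 191 CPM in SLR14 tumours. All 5 SLR14 tumours were above the PBS median, but PBS tumour 2 lay above 3 of them. SLR14 minus PBS came to 0.26 in log2 (SE 0.13, 95% interval -0.02 to 0.54, edgeR adjusted p = 0.499). It was positive in each of 20 alternative fits, from 0.19 to 0.37, and passed in 0 of them (adjusted p 0.250 to 0.733).

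Neither gene of the Notch pair passed the test. Dll4 (ENSMUSG00000027314), the tip cell ligand, was at 14.7, 18.4, 20.4, 20.6 and 12.8 CPM in PBS against 15.4, 17.1, 13.98, 16.3 and 20.3 CPM in SLR14 tumours. Every SLR14 value lay within the PBS range, and the log2 fold change of -0.06 (SE 0.15, edgeR adjusted p = 0.881) had a 95% interval from -0.38 to 0.26. Notch1 (ENSMUSG00000026923), its receptor, was at 104, 96.7, 136, 82.4 and 47.9 CPM in PBS against 90.8, 80.9, 104, 123 and 135 CPM in SLR14 tumours. PBS tumours 3 and 5 set both ends of the whole range, and the log2 fold change was 0.19 (SE 0.22, 95% interval -0.29 to 0.68, edgeR adjusted p = 0.752). It was 0.02 without PBS tumour 5 and 0.37 without PBS tumour 3.

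Esm1 (ENSMUSG00000042379), the proteoglycan endocan that tip cells secrete, was at 13.7, 9.997, 2.34, 19.2 and 5.23 CPM in PBS against 7.83, 11.7, 7.08, 4.23 and 10.2 CPM in SLR14 tumours. The PBS tumours spanned 8.21-fold and contained all SLR14 values. The log2 fold change was -0.31 (SE 0.43, 95% interval -1.24 to 0.63, edgeR adjusted p = 0.796), with the opposite sign without PBS tumour 4 (0.06). As a fold, the interval ran from 0.424 to 1.54, so changes within that range are not excluded by these tumours.

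The members were more uneven in PBS than in SLR14 tumours as a description of these 10 animals: the coefficient of variation was larger in PBS for each of the 10 genes, for example 102% against 33.4% for Aplnr, 52.3% against 26.1% for Angpt2 and 34.4% against 20.9% for Notch1. The same held for 71.9% of all tested genes and for 22 of the 23 endothelial identity genes. This difference in spread was not tested.

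Ratios taken within a tumour need no scaling between libraries and set a ligand against its competitor or receptor. None of the 5 ratios passed. Angpt2 reads outnumbered Angpt1 reads by 58.1, 18.9, 2.38, 28.5 and 8.04 times in PBS tumours 1 to 5 and by 34.4, 35.5, 47.4, 20.2 and 19.4 times in SLR14 tumours. All 5 SLR14 tumours were above the PBS median of 18.9, yet the difference of 1.05 in log2 ratio was smaller than the PBS spread (3.84 ± 1.78 against 4.89 ± 0.559, SD, n = 5, two-sided exact permutation p = 0.246, adjusted 0.527 over the 15 within-tumour comparisons). It was 0.40 without PBS tumour 3 (exact permutation p = 0.524) and 1.55 without PBS tumour 1 (exact permutation p = 0.0397, adjusted 0.3125).

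Tie1 outnumbered Tek by 5.81, 6.60, 3.90, 6.46 and 4.66 times in PBS against 5.67, 8.98, 9.0, 7.30 and 8.05 times in SLR14 tumours. In 4 SLR14 tumours the ratio was above every PBS tumour, and SLR14 tumour 1 was within the PBS range. The log2 ratio was 2.43 ± 0.327 and 2.94 ± 0.276 (SD, n = 5, exact permutation p = 0.0397, adjusted 0.417). Apln outnumbered Aplnr by 1.41 to 11.5 times in PBS against 2.17 to 10.9 times in SLR14 tumours (log2 ratio 2.35 ± 1.22 and 1.93 ± 0.888, exact permutation p = 0.524, n = 5). The log2 ratio of Angpt2 to Tek was 0.83 ± 1.47 and 1.60 ± 0.621 (exact permutation p = 0.341, n = 5), and that of Dll4 to Notch1 -2.37 ± 0.414 and -2.67 ± 0.279 (exact permutation p = 0.222, n = 5).

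**Figure D3:**
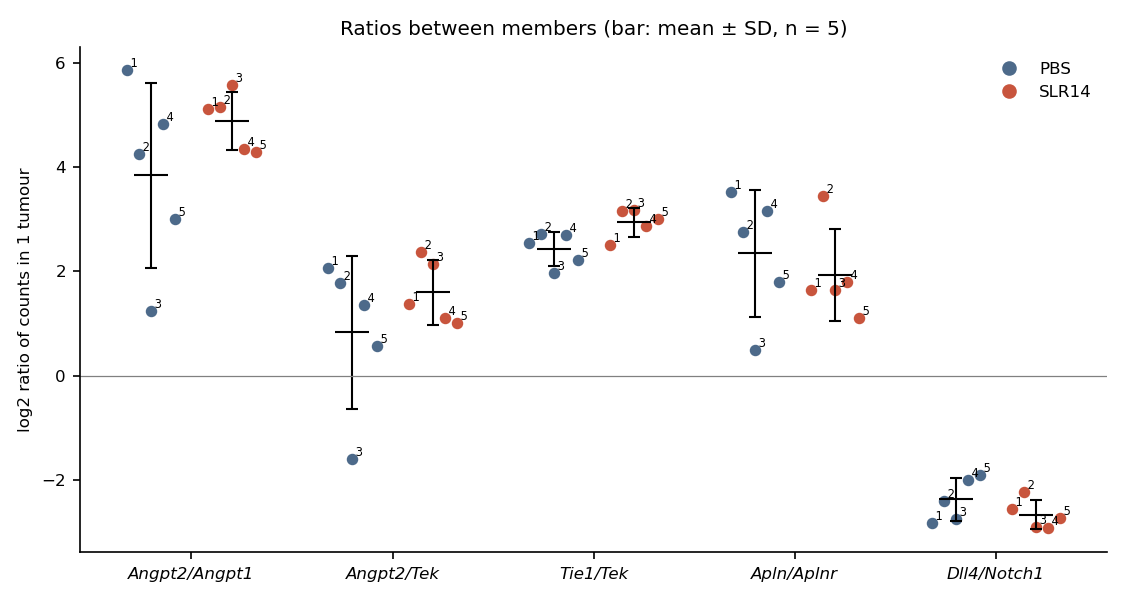
Log2 ratio of counts of 2 members within each tumour, with tumour numbers beside the points and bars for mean ± SD (n = 5 per group). The groups overlap for each ratio; for Tie1 to Tek, 4 SLR14 tumours lie above all PBS tumours, and PBS tumour 3 is lowest for the other ratios of Angpt2 and Apln.

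Set against the endothelial score of the same tumour, the members gave no call either. Apln minus the score was 1.77 ± 0.411 in PBS against 1.28 ± 0.365 in SLR14 tumours (log2 scale, SD, n = 5, exact permutation p = 0.0714, adjusted 0.417). The mean score itself was 3.44 in PBS and 3.45 in SLR14 tumours, and the part of endothelial cells in the Apln level was not tested. For Dll4 the difference between groups was -0.06 (exact permutation p = 0.563), for Tie1 0.20 (exact permutation p = 0.175) and for Tek -0.25 (exact permutation p = 0.111). The adjusted p of the 10 members in this comparison ran from 0.417 to 0.889.

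Across the 10 tumours Tie1, Tek, Dll4 and Aplnr passed an adjusted p of 0.05 for r with the endothelial score, and Notch1, Angpt2, Esm1, Apln and Angptl4 did not. Over 18 relations, 9 members against the endothelial and the hypoxia scores, Tie1 had Pearson r = 0.909 with the endothelial score (permutation p = 0.00037, adjusted 0.00504). Its Spearman rho was 0.891 (permutation p = 0.00097, adjusted 0.00612). Tie1 kept r = 0.891 without PBS tumours 3 and 4, those farthest from the median score (exact permutation p = 0.00446). Tek had r = 0.849 (permutation p = 0.00056, adjusted 0.00504) and rho = 0.842 (permutation p = 0.00353). Without those tumours Tek had r = 0.660 (exact permutation p = 0.0768) and rho = 0.690, so its call for r was not kept. With fewer tumours and a shorter range of scores, this fit cannot tell whether the call rests on them.

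Dll4 had r = 0.801 with the endothelial score (permutation p = 0.00547, adjusted 0.0197). Its rho of 0.745 did not pass (permutation p = 0.0175, adjusted 0.063). Without PBS tumours 3 and 4 Dll4 had r = 0.664 (exact permutation p = 0.0692) and rho = 0.524. Over the same shorter range of scores its call for r was not kept either. Aplnr had r = 0.736 (permutation p = 0.0123, adjusted 0.0317) and rho = 0.661 (permutation p = 0.0432, adjusted 0.111), with r = 0.776 without those tumours (exact permutation p = 0.0228). Angpt2 and Esm1 had r = -0.376 and -0.261 with it (permutation p = 0.286 and 0.466; rho = -0.345 and -0.236, permutation p = 0.331 and 0.513; r = -0.015 and -0.205 without PBS tumours 3 and 4), Notch1 had r = 0.551 (permutation p = 0.0970, adjusted 0.194; rho = 0.552, permutation p = 0.105; r = 0.653 without them), and Apln r = 0.168 (permutation p = 0.639; rho = 0.139, permutation p = 0.708; r = -0.435 without them).

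With the hypoxia score, the mean log2(CPM + 1) of 22 hypoxia response genes such as Vegfa and Pgk1, Angpt2 had r = 0.838 (permutation p = 0.00241, adjusted 0.0109). Its rho was 0.891 (permutation p = 0.00102, adjusted 0.00612). Aplnr had r = -0.891 (permutation p = 0.00242, adjusted 0.0109) and rho = -0.915 (permutation p = 0.00046, adjusted 0.00612). Esm1 had r = 0.774 (permutation p = 0.0105, adjusted 0.0315) and rho = 0.673 (permutation p = 0.0388, adjusted 0.111). Angptl4 had r = 0.106 and rho = 0.030. Tek, Notch1, Tie1 and Dll4 had r = -0.607, -0.441, -0.173 and -0.091. The r of Angptl4 and of these genes did not pass (adjusted permutation p 0.194 to 0.805). PBS tumour 3 had the lowest score (6.25) and SLR14 tumour 2 the highest (7.56). They were also at opposite ends of the summed skeletal muscle and pericyte markers, and the part of that in these relations was not tested. The calls for r were not kept without both tumours, over 8 tumours and a shorter range of scores. There r was 0.521 for Angpt2 (exact permutation p = 0.167), -0.594 for Aplnr (exact permutation p = 0.138) and 0.657 for Esm1 (exact permutation p = 0.0731). The rank correlations without both were 0.786 for Angpt2, -0.833 for Aplnr and 0.429 for Esm1, with no test made of them. The hypoxia genes themselves were not called between the groups, 0 of 22 in edgeR with 0 at an unadjusted p under 0.05; the smallest p belonged to Vegfa, the main sprouting signal (log2 fold change 0.18, edgeR adjusted p = 0.676), and P4ha1, a collagen hydroxylase (0.15, 0.685). For Apln, also known as hypoxia-inducible, r was 0.263 (permutation p = 0.473, adjusted 0.626) and rho 0.564 (permutation p = 0.0982, adjusted 0.189), so neither passed. Its r was 0.795 without PBS tumour 3 and SLR14 tumour 2 (exact permutation p = 0.000967, not adjusted). It was 0.229 without PBS tumour 5 and SLR14 tumour 2, so the value depends on which tumours are left out.

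Among the 36 pairs of tested members, Tie1 with Dll4 had r = 0.845 (permutation p = 0.00259, adjusted 0.049) and rho = 0.782 (permutation p = 0.0103, adjusted 0.152). Angpt2 with Esm1 had r = 0.828 (permutation p = 0.00272, adjusted 0.049) and rho = 0.782 (permutation p = 0.0109, adjusted 0.152). These were the 2 pairs past an adjusted p of 0.05 for r. Without PBS tumours 3 and 5 the first was r = 0.708 (exact permutation p = 0.0529), with rho = 0.619. The other was r = 0.622 (exact permutation p = 0.0955), also with rho = 0.619. Neither call for r was kept, over fewer tumours and a shorter range of values. Both can lower r or raise p, so whether the calls rest on those tumours cannot be told. Without PBS tumour 5 and SLR14 tumour 2, r was 0.766 for the first pair and 0.834 for the other. Angpt2 and Aplnr ran against each other, with r = -0.795 (permutation p = 0.00785, adjusted 0.0942) and rho = -0.745 (permutation p = 0.0169), and r = -0.861 without PBS tumours 3 and 5 (exact permutation p = 0.00608).

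**Figure D4:**
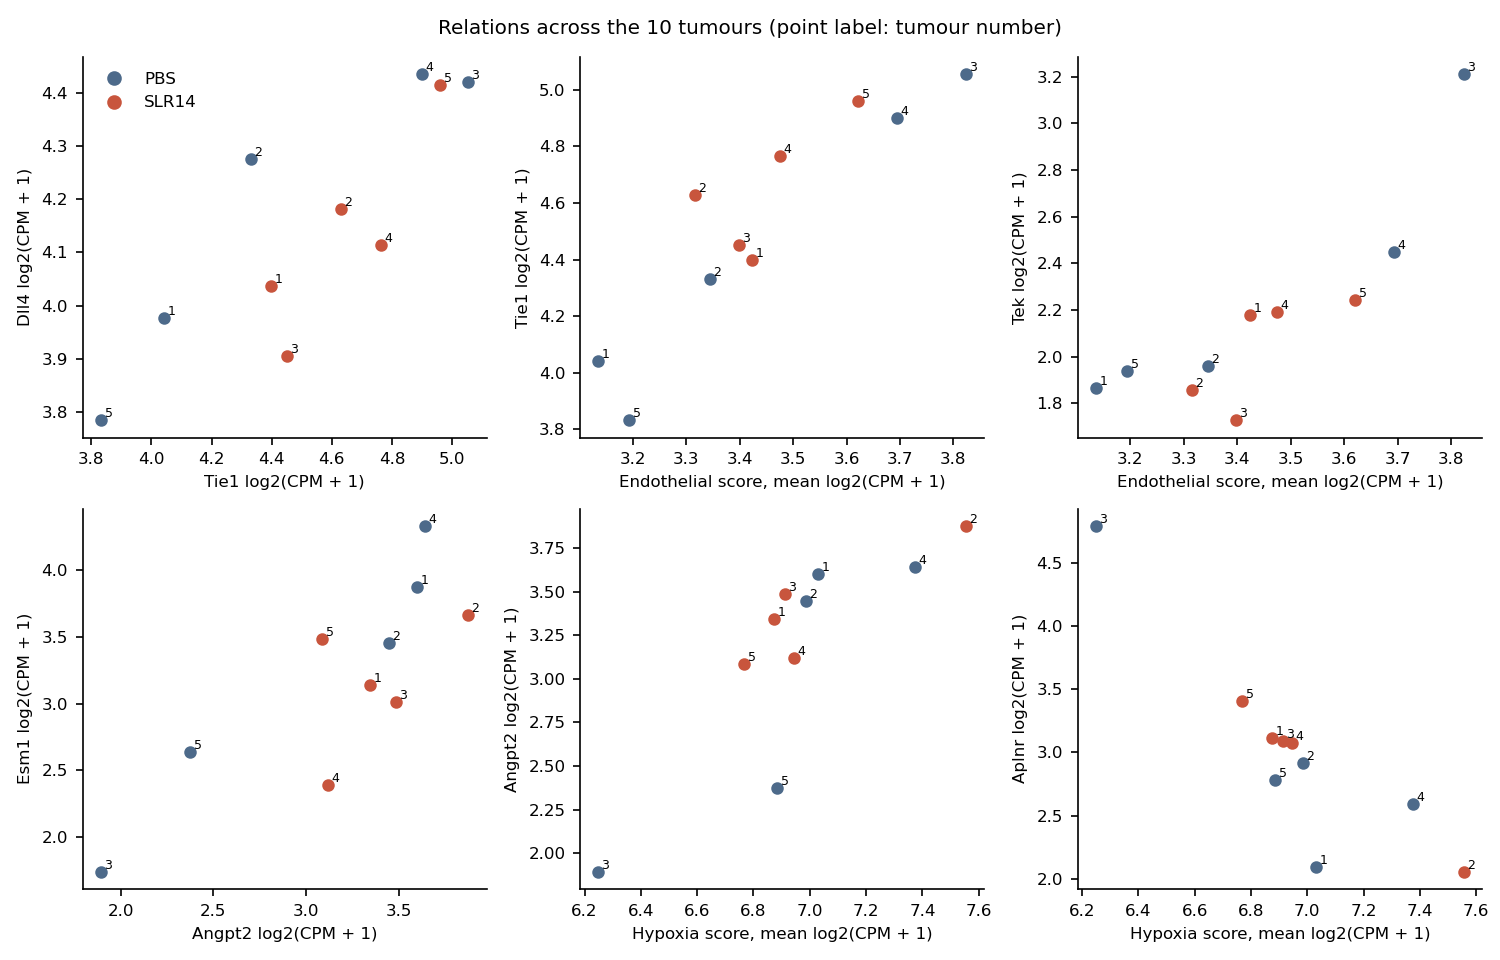
Each panel sets a member against another member or a score across the 10 tumours on the log2(CPM + 1) scale, PBS in blue and SLR14 in red with tumour numbers beside the points. Tie1 rises with the endothelial score over the whole range, while PBS tumour 3 sits at the end of the panels of Tek, Angpt2, Esm1 and Aplnr.

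The tested genes most like each member over the 10 tumours, by Pearson r of log2(CPM + 1) and with a mean of at least 1 CPM, differed from member to member. Those of Dll4 were led by the endothelial cadherin Cdh5 (r = 0.938), followed by Rbm22 and Oxa1l. Those of Tek were led by Myct1 (r = 0.968), another gene of the endothelial list, followed by P3h3 and Zfta. Aplnr was followed most closely by thrombomodulin, Thbd (r = 0.939), an endothelial anticoagulant receptor, and by H2bc21 and Bop1. Esm1 went with Dcaf6 (r = 0.938), the hypoxia gene Kdm3a (r = 0.935) and Zc3h6, and Angpt2 with Ugcg (r = 0.976), Nos2 and Dixdc1. Apln went with Atp8b1 (r = 0.962), Arhgef3 and Egflam, Angptl4 with Muc1 (r = 0.935), Pde7a and Prdm11, Tie1 with Dnaaf5 (r = 0.9747), Psmf1 and Idua, and Notch1 with Sned1 (r = 0.981), Pik3cd and Dhx33. These are the highest values in 10 libraries from a search of the 15883 tested genes. It left out genes under a mean of 1 CPM, predicted genes, genes with clone or Rik names or no symbol, and pseudogenes. The values are given as a description.

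The other genes of these pathways were mostly not called. Of 14 tested genes of angiopoietin-Tie signalling 0 passed in edgeR, with a median log2 fold change of 0.08 and 1 at an unadjusted p under 0.05. That gene was the integrin subunit Itga5, at 103 ± 18.6 CPM in PBS against 146 ± 20.2 CPM in SLR14 tumours (SD, n = 5, log2 fold change 0.50, edgeR adjusted p = 0.154). The next by p was Ptpn11, the phosphatase SHP2 that Tek recruits, at 216 ± 51.2 and 248 ± 9.38 CPM (0.20, edgeR adjusted p = 0.644). Of 12 tested genes of apelin signalling 0 passed, with a median of 0.15 and 4 at an unadjusted p under 0.05. Mme, the peptidase neprilysin that cleaves apelin, was at 484 ± 39.1 and 376 ± 45.4 CPM (log2 fold change -0.36, edgeR adjusted p = 0.179), and the flow-responsive factor Klf2 at 52.3 ± 7.93 and 80.9 ± 27.2 CPM (0.63, edgeR adjusted p = 0.239).

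Of 27 tested genes of the Notch pathway 0 passed, with a median of 0.08 and 2 at an unadjusted p under 0.05, the non-canonical ligand Dlk1 (log2 fold change -1.15, edgeR adjusted p = 0.334) and the ligand Jag1 (0.29, edgeR adjusted p = 0.458). The Notch targets Heyl, Hey1, Hes1 and Nrarp had log2 fold changes of -0.64, 0.29, -0.07 and -0.07 (edgeR adjusted p 0.532, 0.688, 0.842 and 0.857). Of 23 other tip cell genes 0 passed, with a median of 0.11 and 2 at an unadjusted p under 0.05. Kcne3, a potassium channel subunit of tip cells, was at 7.36 ± 3.23 CPM in PBS against 3.82 ± 0.771 CPM in SLR14 tumours (SD, n = 5, log2 fold change -0.95, edgeR adjusted p = 0.152), and Pdgfb, which recruits pericytes, at 104 ± 15.3 and 130.3 ± 20.1 CPM (0.33, edgeR adjusted p = 0.365).

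Calls appeared at the edges of these pathways. Angptl7, a relative of Angptl4, was at 3.90, 4.63, 3.62, 2.69 and 3.79 CPM in PBS against 1.07, 1.55, 0.558, 1.32 and 1.09 CPM in SLR14 tumours, without overlap. It fell by 1.77 in log2 units (SE 0.26, edgeR adjusted p = 0.00451) and was called in each of 20 alternative fits. Lipg, endothelial lipase, which Angptl proteins also inhibit, was at 0.0898 to 0.339 CPM in PBS against 0.613 to 1.65 CPM in SLR14 tumours and rose by 2.45 (SE 0.42, edgeR adjusted p = 0.0126). Its PBS values were all under 0.373 CPM, so it entered the test through the SLR14 tumours alone and had to differ. The other 7 tested genes of that list, among them Lpl and Gpihbp1, were not called, and the 9 had a median of 0.05.

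Of 8 tested genes of stalk and quiet endothelium 1 passed, Smad6, an inhibitor of BMP signalling in endothelium, at 18.5, 19.2, 19.5, 22 and 13.98 CPM in PBS against 27.5, 28.5, 27.5, 28.5 and 28.6 CPM in SLR14 tumours. It rose by 0.59 in log2 units (SE 0.11, edgeR adjusted p = 0.0241), with a list median of 0.13. The call was lost without any 1 of 8 tumours, the exceptions being PBS tumours 4 and 5 (edgeR adjusted p 0.0505 to 0.0718), while the log2 fold change stayed between 0.49 and 0.66 over the 20 alternatives.

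**Figure D5:**
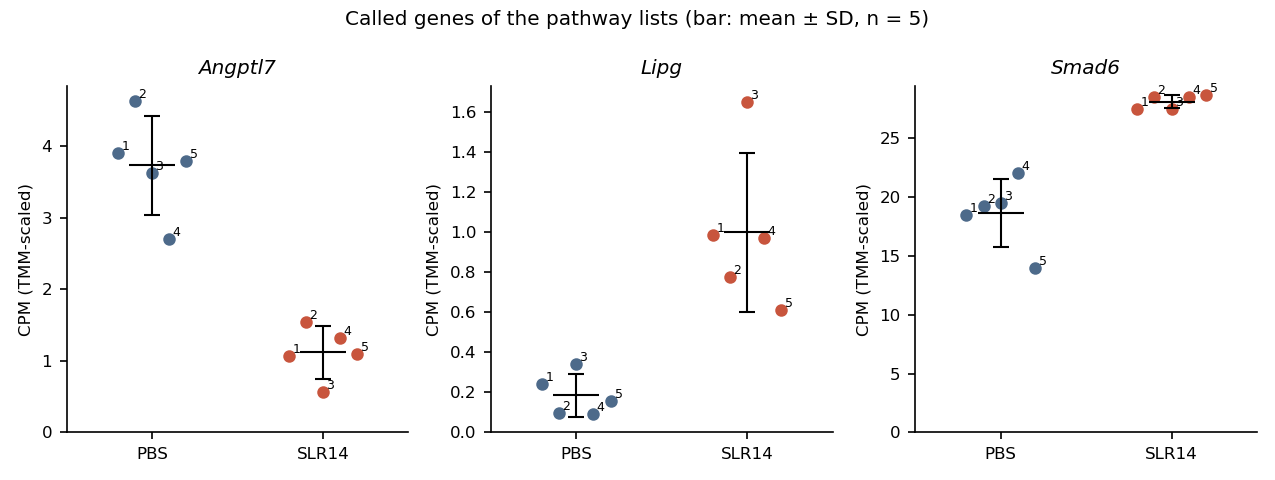
CPM of Angptl7, Lipg and Smad6, the called genes of the lists around the members, in each tumour with mean ± SD (n = 5 per group). The groups do not overlap for any of these 3 genes, as for 3.24% of all tested genes. For Lipg this was fixed by the low-count filter, which it passed through the SLR14 tumours alone.

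The cells that make and receive these signals were followed by their markers. Of 23 endothelial identity genes 0 passed in edgeR and 0 had an unadjusted p under 0.05, with a median log2 fold change of -0.05, Pecam1 being at 43.2 ± 11.7 and 38.4 ± 7.33 CPM (SD, n = 5). Of 14 pericyte genes, markers of a source of Angpt1, 1 passed: Rgs5 was at 80.6 ± 6.20 CPM in PBS against 41.5 ± 8.24 CPM in SLR14 tumours and fell by 0.96 in log2 units (edgeR adjusted p = 0.00315). Of the 14, 5 had an unadjusted edgeR p under 0.05, against 10.8% of all tested genes, with a median log2 fold change of -0.19. Myh11 was among those 5 but rose (0.75, edgeR adjusted p = 0.334). The pericyte list summed to 326 to 487 CPM in PBS against 290 to 342 CPM in SLR14 tumours, beside the 77 and 41 reads of Angpt1. Fibroblast markers summed to 1285 to 3924 and 1074 to 2059 CPM. Of 11 tested, 1 was called, Fap, which fell by 1.74 (edgeR adjusted p = 0.0126, and 0.0512 without both PBS tumours 3 and 5). Of the 11, 10 had a negative log2 fold change and 6 an unadjusted edgeR p under 0.05, with a median of -0.72. The part of the pericyte and fibroblast genes in the values of Angpt1 was not tested. Of the lymphatic markers 3 of 7 were tested and 0 called, and Prox1 was not analysed here. Of 13 tested targets of lipid-sensing PPAR receptors, which induce Angptl4, 0 passed and 0 had an unadjusted p under 0.05 (median -0.06), the smallest p being those of the fatty acid oxidation enzymes Acadm (log2 fold change -0.25, edgeR adjusted p = 0.464) and Cpt1a (0.25, 0.546). Of 6 tested adipocyte genes 0 passed and 1 had an unadjusted p under 0.05, with sums of 174 to 264 CPM in PBS against 277 to 338 CPM in SLR14 tumours, without overlap. That sum was carried mostly by Plin4 (156 ± 31.8 and 215 ± 22.2 CPM), while the adipocyte-defining Adipoq, Plin1 and Lep were not analysed here, and the part of these cells in the level of Angptl4 was not tested. Summed macrophage markers overlapped between the groups (1961 to 2413 and 1931 to 2392 CPM, 0 of 11 called), while 3 of 7 tested neutrophil genes (S100a8, S100a9 and Mmp8) rose in edgeR, with sums of 31.7 to 44.9 and 40.3 to 83.2 CPM. With limma voom 0 of these 3 passed (adjusted p 0.0521, 0.135 and 0.0576). S100a9 was lost without any 1 of PBS tumours 1 to 4 and SLR14 tumours 1 and 4 (edgeR adjusted p 0.0621 to 0.0844), and Mmp8 without PBS tumour 3 (0.0501). Of 11 tested renal epithelial genes 1 was called, Epcam, an epithelial adhesion molecule, which fell by 2.42 (edgeR adjusted p = 0.0324). It was lost without any 1 of 7 tumours, PBS 1, 3 and 4 and SLR14 1 to 4 (edgeR adjusted p 0.0547 to 0.0936).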

How the data were processed

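RNA from 10 tumours, 5 PBS and 5 SLR14, was analysed from deposited values. Per the labels' protocols, ribosomal RNA was depleted and messenger RNA enriched with oligo(dT) beads before random-primed cDNA synthesis. Reads were handled with STAR, Trim Galore 0.6.7 and DESeq2 1.36.0 on build mm39, per the submitters' processing notes. Strand setting, gene models and counter were not given in the sources used here. Without strand, reads of overlapping or antisense genes cannot be told apart. The deposited raw counts (18603 genes) were used for all main tests. The deposited normalized signal, the authors' counts divided by 1 factor per sample, served 1 alternative. Genes without a symbol (74, 0.0295% of counts) were kept.

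Genes were filtered with filterByExpr (minimum count 10) and scaled by TMM, and groups were compared with edgeR 4.0.16 (glmQLFit, glmQLFTest; R 4.3.3), Benjamini-Hochberg adjusted over 15883 genes at 0.05. SE is the absolute log2 fold change over the square root of F. Limma 3.58.1 and DESeq2 1.42.0 were alternatives, and the test was checked on simulated data. Within-tumour ratios added 0.5 to each count and, with the differences from the endothelial score, were compared by two-sided exact permutation tests over 252 assignments (smallest p 0.00794), adjusted over 15. Correlations, added after the values were seen, used 100000 permutations, or all orders for 8 tumours. Exon lengths came from GENCODE M21 on GRCm38, not the submitters' build. Groups come from the sample titles. Named genes were the members, for each pathway list its called genes (or the 2 with the smallest p), and the 3 genes most like each member. Other named genes (called genes of the marker lists, Pax8, Krt8, Pecam1, Eng, Tal1, Myh11, Plin4, Prox1, Adipoq, Plin1, Lep, Heyl, Hey1, Hes1, Nrarp, Pgk1, Lpl and Gpihbp1) were added as markers or examples after their values were seen. Members and lists were chosen with earlier results of these data known.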

Additional observations from a re-analysis of the deposited data

Results flagged for a closer look

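The apelin receptor Aplnr was at 26.8 CPM in PBS tumour 3, while the other 4 PBS tumours were at 3.28 to 6.54 CPM. The gap to the next tumour was 0.861 of the whole range of the group, above Dixon's critical value of 0.71 for 5 samples. It was 1 of 30 groups of values examined in this way, and chance alone marks about 1 in 20. In the same tumour Tek was also the highest of the PBS tumours (8.26 CPM), as was the endothelial score (3.82), while Angpt2 (2.71 CPM) and the summed hypoxia genes (6143 CPM) were the lowest.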

How the results depend on the processing

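The number of genes called was 153, against 407 with DESeq2, 78 with the replicate block and 69 to 194 without 1 tumour (PBS 1 left out gave 69, PBS 3 gave 78, and SLR14 1, 3 and 4 gave 77, 75 and 89). Genes called on the pathway and marker lists numbered 9, against 4 with the replicate block and 5 (PBS 3 left out) to 11 without 1 tumour. Members called numbered 0, against 1, Apln, without PBS tumour 5, without both PBS 5 and SLR14 2, and without both PBS 3 and PBS 5 (log2 fold change -0.73, edgeR adjusted p = 0.0306), the last an alternative chosen after the data were seen. Each of these fits leaves out the lowest PBS value of Apln, and the fit without SLR14 2 also the highest SLR14 value. Without 1 tumour the count of members called was 0 to 1. Same-numbered tumours did not deviate together (correlations -0.25 to 0.138 over 5 pairs, 1 of 5 PBS tumours correlating best with its own number), so the numbers are not treated as pairing, and the block changed no member's call. Of the 9 list genes, the block lost Fap, Smad6, S100a8, Mmp8 and S100a9 (adjusted p 0.0742, 0.0830, 0.0537, 0.0686 and 0.123). Without 1 tumour the log2 fold change ran from -0.63 to 0.46 for Aplnr (0.0229 with limma voom, 0.53 without both PBS 3 and PBS 5), from -0.16 to 0.00652 for Dll4 and from -0.56 to 0.0649 for Esm1. Angpt2 was at -0.0367 without both PBS 5 and SLR14 2 and -0.18 without both PBS 3 and PBS 5. Relative to the endothelial score, the group difference ran from -0.54 to 0.16 for Esm1 and from -0.27 to 0.25 for Aplnr without 1 tumour, Aplnr was at 0.0929 without both PBS 5 and SLR14 2 and 0.36 without both PBS 3 and PBS 5, and Angpt2 at -0.24 without the latter. The log2 ratios of Angpt2 to Angpt1 and to Tek were -0.0920 and -0.135 without both PBS 3 and PBS 5. The cause was not tested. The ratios of Tie1 to Tek, Apln to Aplnr and Dll4 to Notch1 kept their sign in all 15 alternatives, and no ratio or relative value passed in any of them. Read numbers limit Angpt1, with 5 to 30 reads per tumour; for the other members the spread between 5 tumours sets the intervals. The labels give 5 mice per group and name no batch. The p-values set group differences and relations against the spread between these tumours, whatever its sources.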
